A study of Mus musculus with 4 samples.

Results

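Opcml and Ntm are neighbouring genes of the IgLON family of neuronal adhesion proteins, and their locus on mouse chromosome 9 held 204 H3K27ac HiChIP interactions in the lists analysed, of 15011 in all. Of these, 186 were listed for somatostatin (SST) interneurons, out of 8278, and 18 for vasoactive intestinal peptide (VIP) interneurons, out of 6733. A member was any interaction with an anchor overlapping chr9:27550000-29850000 (build mm9) by at least 1 bp. Anchors with a midpoint below 28770000 were placed on the Opcml side and the others on the Ntm side. The locus was selected on its number of listed interactions, chosen by the difference between SST and VIP, so the counts that set SST against VIP are a description without a test.

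The SST nuclei came from adult mice of genotype Sst-cre; Sun1 and the VIP nuclei from adult mice of genotype Vip-cre; Sun1, in both cases from cortex and on a C57BL/6 background. Nuclei were captured by INTACT, in which Cre switches on tagged Sun1, a protein of the nuclear envelope, so each group is the set of nuclei in which that driver was active. The labels describe 4 samples, 2 per cell type, and 1 list per cell type was analysed here. The labels do not state the number of animals. Spread between replicates could therefore not be measured, and no p-value was computed.

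IgLON proteins are held on the outer face of the neuronal membrane by a lipid anchor and bind each other within and between cells through immunoglobulin domains. Opcml encodes opioid-binding cell adhesion molecule, and Ntm encodes neurotrimin, and both have been studied in neurite growth and synapse formation. Acetylation of histone H3 at lysine 27 (H3K27ac) marks promoters and enhancers that are in use, and HiChIP lists pairs of anchors whose contacts carried the mark. An interaction therefore needs both acetylated chromatin and a detected contact, and these cannot be told apart in a list. SST interneurons are inhibitory cells that mainly contact dendrites of excitatory neurons, and many VIP interneurons inhibit SST cells.

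In a GRCm38 gene table, Opcml (gene 330908) and Ntm (gene 235106) follow each other among protein-coding genes, with Spata19 before Opcml and Snx19 after Ntm. No mm9 annotation was used here, so the position of either gene relative to an anchor was not determined, and neither were Sst, Vip or other markers of the labelled cell types. The names Opcml side and Ntm side therefore stand for the parts of the locus below and above 28770000. Promoter sequences are shown because they cover starts listed for the genes named, and because the chromatin was cut with MboI, which recognises GATC. RefSeq gives 1 start for Opcml and 2 for Ntm in this table, each with 250 bases before and 50 after the start, on build GRCm38.p6, whose positions cannot be compared with mm9 anchors. They are written 5′ to 3′ on the strand of the gene, with GATC in capitals.
Opcml, chr9:27791049-27791348, plus strand: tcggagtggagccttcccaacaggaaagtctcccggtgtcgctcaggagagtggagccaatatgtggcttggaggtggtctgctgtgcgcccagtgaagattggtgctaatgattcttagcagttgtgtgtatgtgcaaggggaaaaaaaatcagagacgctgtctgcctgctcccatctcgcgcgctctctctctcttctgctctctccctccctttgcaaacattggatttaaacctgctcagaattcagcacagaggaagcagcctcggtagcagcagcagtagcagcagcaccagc
Ntm start 1, chr9:29413403-29413702, minus strand: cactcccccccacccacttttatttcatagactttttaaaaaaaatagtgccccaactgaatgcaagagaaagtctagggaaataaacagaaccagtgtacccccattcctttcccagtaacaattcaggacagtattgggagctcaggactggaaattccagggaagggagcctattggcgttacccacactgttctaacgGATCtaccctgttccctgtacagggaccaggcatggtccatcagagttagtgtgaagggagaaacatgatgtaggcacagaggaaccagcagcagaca
Ntm start 2, chr9:29412636-29412935, minus strand: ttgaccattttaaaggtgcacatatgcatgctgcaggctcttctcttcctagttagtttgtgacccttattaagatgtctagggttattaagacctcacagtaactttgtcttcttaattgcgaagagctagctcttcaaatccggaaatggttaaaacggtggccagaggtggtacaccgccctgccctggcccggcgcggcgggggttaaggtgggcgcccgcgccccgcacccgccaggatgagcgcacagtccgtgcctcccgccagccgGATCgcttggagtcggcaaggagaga

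The genes lie on opposite strands. GATC, which reads the same on both strands, was in both Ntm windows, at base 203 of start 1 and base 275 of start 2, and was not in the Opcml window. Over 32851 promoter windows of 300 bases, 48.0% held GATC. The Opcml window had 9 CG dinucleotides and a GC content of 53.7%, against a median of 7 and 52.7% over all windows. Ntm start 2 had 19 CG dinucleotides, a number reached by 28.1% of windows, and Ntm start 1 had 2. Ntm start 1 was below the median of all windows in CG number, and the Opcml window and Ntm start 2 were above it.

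The SST interactions of the locus made up 22.5 per 1000 of their list (exact 95% Poisson interval 19.4 to 25.9), and the VIP interactions made up 2.67 per 1000 (1.58 to 4.23). The difference was 19.8 per 1000 and the ratio 8.40 (5.17 to 14.5). The difference was 12.6 when anchors within 10 kb were merged, 11.4 among interactions of up to 200 kb, and 5.53 when distinct anchors were counted per 1000 anchors. Intervals here and below cover counting error alone and take interactions as independent, although many share an anchor. The locus took 34.8% of the 534 SST interactions of chromosome 9 and 5.63% of the 320 VIP interactions. Outside the locus, chromosome 9 held 348 SST and 302 VIP interactions, a ratio of 1.15, close to the ratio of the list lengths of 1.23. Read depth per library is unknown. A contact that is not listed may have been absent or below detection, and which of these holds was not tested.

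**Figure D1:**
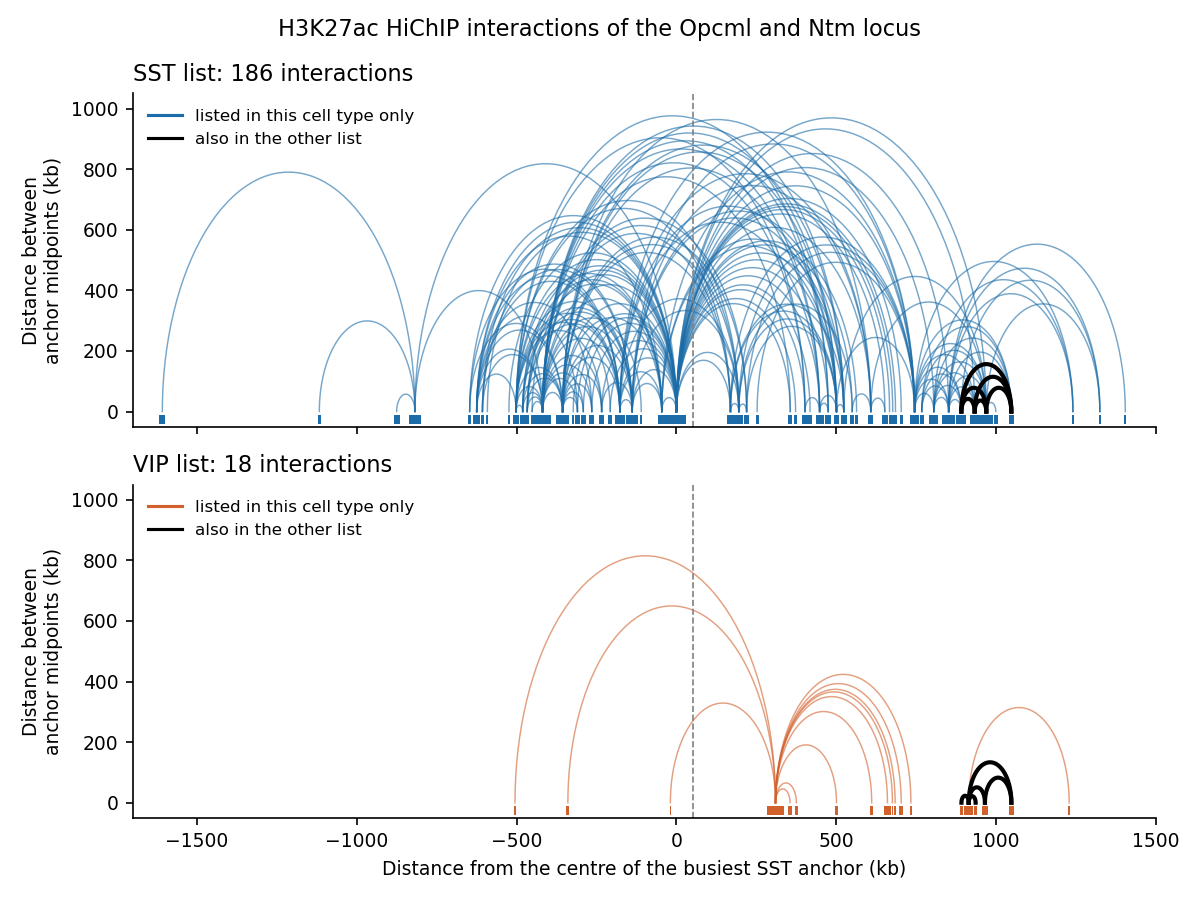
Each arc is an interaction, drawn between anchor midpoints, with its height giving the distance in kb, and boxes under the arcs show the anchors to scale. SST interactions (186, above) and VIP interactions (18, below) are plotted by distance from the centre of the busiest SST anchor, the dashed line is the boundary between the Opcml side (left) and the Ntm side (right), and black arcs, 6 in SST and 5 in VIP, are in both lists.

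Among 771 windows as wide as the locus (2.3 Mb) that held any interaction, with the windows of chromosome 9 aligned to the locus, it ranked 1 by SST interactions and 138 by VIP interactions. The windows nearest to it in the difference per 1000 were chr17:9200001-11500000 with 153 SST and 24 VIP interactions, chr17:11500001-13800000 with 89 and 0, and chr8:119600001-121900000 with 82 and 4. The windows with 153 and 89 SST interactions adjoin each other. Windows on other chromosomes were fixed tiles that can cut a cluster of interactions, while the limits of the locus were chosen with these data known. The ranks therefore hold for this placement of windows only, and other placements were not tested. Of the 285 windows with 20 or more interactions, 34 had at most 10% from VIP, or 11.9%, and the locus, at 8.82% from VIP, was among them. The window directly below it held 5 SST and 12 VIP interactions and the window directly above it 9 SST and 1 VIP interactions, against medians of 6 SST and 4 VIP over windows with any interaction. Interactions with an anchor in the locus made up 1 of the 5 and 7 of the 9 in SST, and 0 of the 12 and the lone 1 in VIP.

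**Figure D2:**
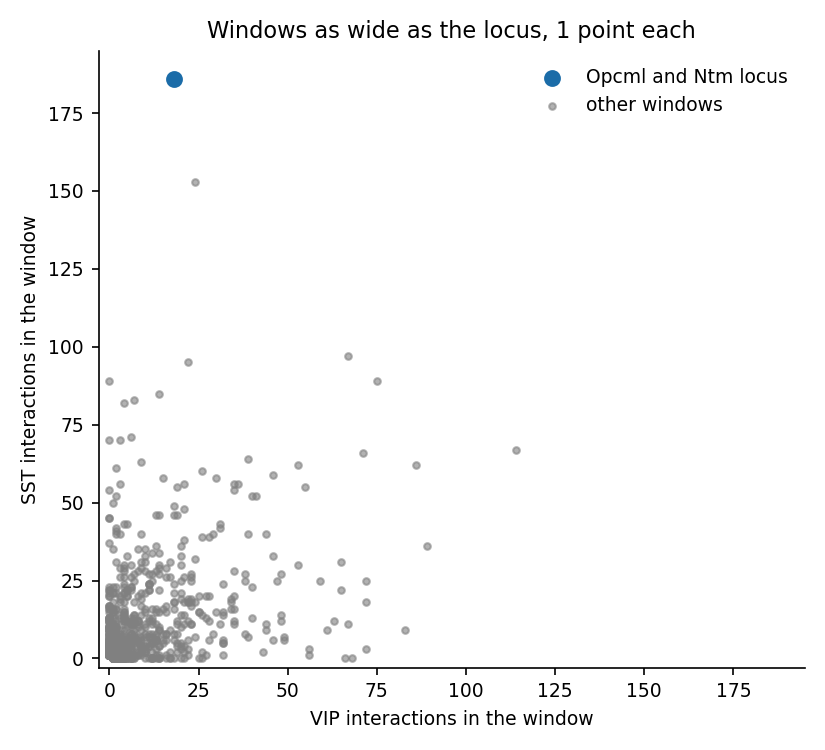
Each point is a window of 2.3 Mb with at least 1 interaction, plotted by its VIP interactions (x axis) and SST interactions (y axis). The locus, with 186 SST and 18 VIP interactions, is the highest point, and the next highest has 153 SST and 24 VIP interactions.

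The SST members joined 58 anchors, 54 of them inside the locus, and the VIP members joined 19 anchors, 18 of them inside. SST anchors covered 45.6% of the locus and VIP anchors 10.4%. The median anchor was 15.8 kb wide in SST (11.7 to 18.2) and 8.83 kb in VIP (7.42 to 13.5), against 11.8 kb and 12.4 kb over the other anchors of the SST and VIP lists. An SST anchor of the locus took part in a median of 4 interactions (3 to 7), against 2 over the rest of the SST list. The median was 1 in VIP, against 2 over the rest of the VIP list, and 15 of 19 anchors had a lone interaction. In SST 12 of the 58 anchors had 10 or more interactions, against 4.43% of anchors over the whole SST list. As the locus was chosen on its number of listed interactions, high numbers per SST anchor follow in part from that choice. Wider anchors had more interactions, with a Spearman correlation of 0.80 across the 58 SST anchors and 0.62 across the other 5784 SST anchors, a description of anchors that come from the same list and share interactions.

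The busiest SST anchor, chr9:28686966-28749132, is the last anchor on the Opcml side and is called the SST hub here. It was 62.2 kb wide and took part in 44 of the 186 interactions (Poisson interval 32.0 to 59.1), or 23.7% of them. When anchors within 5 or 10 kb were merged, the busiest anchor of the locus had 27 and 19. Its partners lay on both sides of it, 21 below and 23 above, at 45.9 to 969.7 kb with a median of 491 kb. It was linked to 44 of the 57 other SST anchors. Of the 13 it was not linked to, 6 lay more than 1 Mb away, and no listed interaction is that long. The VIP anchor at this place, chr9:28696526-28701723, was 5.20 kb wide and had 1 interaction.

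**Figure D3:**
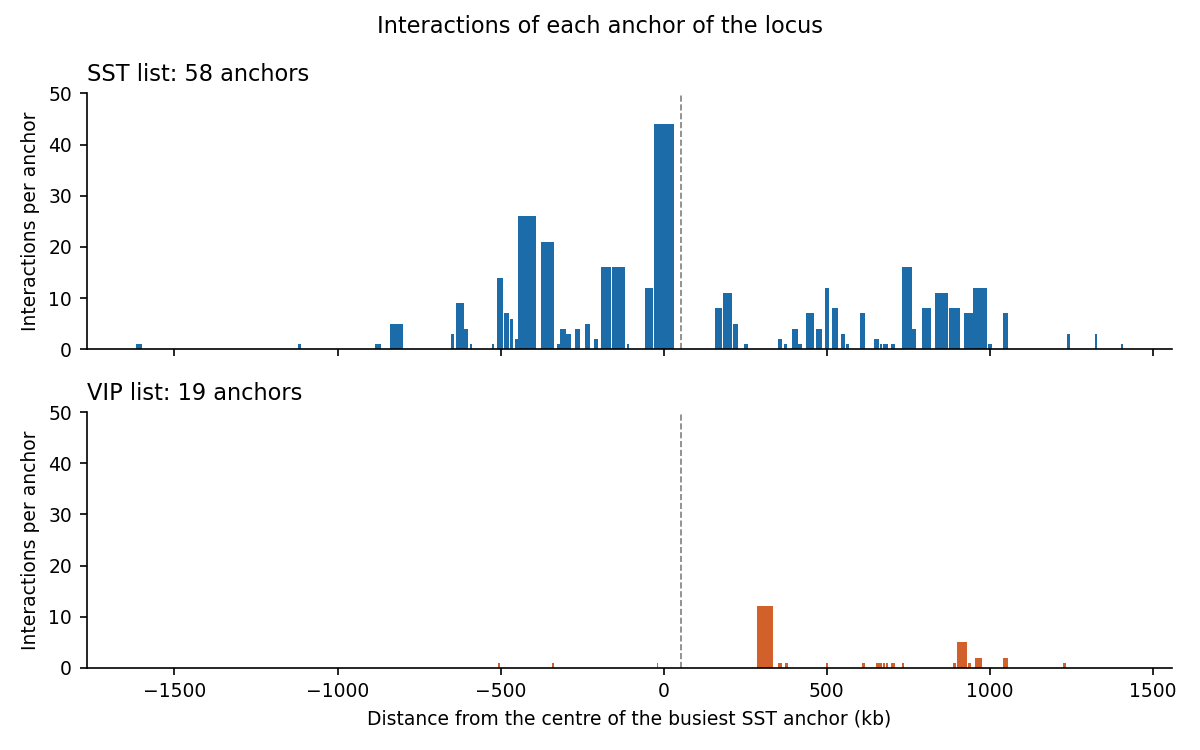
Bars give the number of interactions of each anchor (y axis), with bar width equal to anchor width, by distance from the centre of the busiest SST anchor (x axis, kb), for SST above and VIP below. SST bars reach 44 and stand on both sides of the dashed boundary, while the highest VIP bars, at 12 and 5, stand to its right.

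The other busy SST anchors of the Opcml side lay between 28208067 and 28684212. Anchors chr9:28271959-28326276 and chr9:28342100-28381757 had 26 and 21 interactions and were 54.3 and 39.7 kb wide. Anchors chr9:28525043-28556685 and chr9:28560852-28598763 had 16 each, chr9:28208067-28224954 had 14 and chr9:28660142-28684212 had 12. Of these, chr9:28342100-28381757 and chr9:28208067-28224954 overlapped a VIP anchor, each with 1 interaction in VIP, and the other 4 overlapped none. Below these, the SST anchors between 28066978 and 28196429 had 3, 9, 4, 1 and 1 interactions, and those between 27595938 and 27919641 had 1, 1 and 5.

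On the Ntm side the SST anchor chr9:29448052-29478717 had 16 interactions, of which 12 stayed on that side. Anchors chr9:29211934-29226019 and chr9:29666340-29709129 had 12 each, and chr9:28898721-28927754 and chr9:29550710-29589295 had 11 each. The 12 anchors with 10 or more interactions, 7 on the Opcml side and 5 on the Ntm side, took part in 166 of the 186 SST interactions. Among them, 45 of the 52 pairs within 1 Mb were linked to each other, or 86.5% (exact binomial interval 74.2 to 94.4%), against 16.9% (14.6 to 19.3%) of all 1056 pairs of SST anchors inside the locus within 1 Mb. These anchors were picked for their number of links, so a high share is partly fixed by that choice. All 186 SST interactions formed 1 connected network, with 311 triangles of mutually linked anchors.

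The VIP interactions fell into 2 separate networks of 12 and 6 interactions and had 1 triangle. All 12 of the first met at the anchor chr9:29002933-29053352, the VIP hub, which was 50.4 kb wide and lay 310 kb above the SST hub, on the Ntm side. Of connected triples of anchors, 36.0% were closed in SST and 3.85% in VIP, against 37.7% and 39.9% over the rest of the SST and VIP lists. The VIP value rests on 78 triples, most of them centred on the VIP hub. The partners of the VIP hub had no other VIP interaction, so those triples could not be closed. In SST no anchor overlapped the VIP hub, and the stretch from 28975556 to 29067814 held none.

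Of the 12 VIP hub partners, 3 lay on the Opcml side, at 329, 650 and 815 kb from it, and 9 on the Ntm side, at 45.5 to 424 kb. All 12 overlapped an SST anchor. For 11 of them that anchor was a partner of the SST hub, and the remaining partner overlapped the SST hub itself. As 44 of the 57 other SST anchors were partners of the SST hub, a large overlap of this kind follows in part from its reach. None of the 12 links was shared, since the VIP hub had no counterpart in SST. The VIP hub partners were 4.09 to 19.6 kb wide and had 1 VIP interaction each.

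The other VIP network lay at the upper end of the locus and centred on chr9:29618576-29647137, with 5 interactions. Its partners were chr9:29606251-29613785, chr9:29649663-29659006, chr9:29673192-29693916, chr9:29759465-29773008 and, outside the locus, chr9:29942813-29951230. The sixth interaction joined the anchors at 29673192 and 29759465. Every VIP interaction of this network except the one to 29942813 was also listed in SST.

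Sharing was counted when both anchors of an interaction overlapped those of an interaction in the other list by at least 1 bp. In SST 6 of 186 locus interactions were shared, 3.23% (1.19 to 6.89%), so 180 were not, or 96.8%, against 78.6% unshared over the whole SST list. In VIP 5 of 18 were shared, 27.8% (9.69 to 53.5%), so 13 were not, against 74.2% unshared over the whole VIP list. The 6 SST interactions joined the 4 anchors chr9:29593858-29625320, chr9:29637836-29664862, chr9:29666340-29709129 and chr9:29758112-29773911, each with each. They spanned 36.4 to 156 kb. The counts of 6 and 5 differ because an anchor can overlap 2 anchors of the other list, as the VIP anchor at 29618576 did. When the overlap had to reach 50% of the shorter anchor, 0.538% of SST and 5.56% of VIP locus interactions were shared. Since the locus was chosen for the difference between the lists, nothing is read from these shares.

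In SST 40 of 58 locus anchors overlapped no VIP anchor, or 69.0% (55.5 to 80.5%), against 63.1% over the whole list. In VIP 2 of 19 overlapped no SST anchor, or 10.5% (1.30 to 33.1%), against 56.5% over the whole list. The 2 were the VIP hub and the anchor at 29942813. SST anchors covered more of the locus than VIP anchors, which makes such an overlap more likely. Of the SST interactions, 30 had both anchors in the VIP list, 98 had 1 and 58 had neither. Of the 30, 6 were linked in VIP too, or 20.0% (7.71 to 38.6%), against 73.1% (71.3 to 74.9%) of 2419 such interactions in the rest of the SST list. A low share follows in part from the choice of a locus with many SST and few VIP interactions, so nothing is read from it. Of the 24 not linked in VIP, 14 were links of the SST hub. All 5 VIP interactions with both anchors in SST were shared (47.8 to 100%), against 74.7% of 2322 in the rest of the VIP list. The interval of the locus includes 74.7%.

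In SST 77 of the 186 interactions stayed on the Opcml side, 41.4% (34.2 to 48.8%), 53 stayed on the Ntm side, 28.5% (22.1 to 35.6%), and 56 joined the sides, 30.1% (23.6 to 37.2%). In VIP no interaction stayed on the Opcml side, 15 stayed on the Ntm side and 3 joined the sides. The count of 0 of 18 has an exact binomial interval of 0 to 18.5%, and a floor of 3 counts allows a share of up to 16.7%. No anchor of either list spanned the boundary. The nearest SST anchors were the SST hub, which ends at 28749132, and chr9:28876482-28897872 with 8 interactions. Moving the boundary 100 kb down puts the SST hub and its neighbour chr9:28660142-28684212 on the Ntm side, and the shares then were 25.8% on the Opcml side and 43.0% on the Ntm side.

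The 56 SST interactions that joined the sides used 7 anchors of the Opcml side. The SST hub took 23 of them, followed by chr9:28271959-28326276 with 9, chr9:28342100-28381757 with 7, the anchors at 28525043 and 28560852 with 5 each, that at 28208067 with 4 and that at 28660142 with 3. On the Ntm side they ended at 24 anchors. The most, 6 each, ended at chr9:28898721-28927754 and chr9:29211934-29226019, and 13 anchors had 1 each. Without the SST hub, 33 interactions joined 6 anchors of the Opcml side to 11 of the Ntm side. The 3 VIP interactions that joined the sides all ran from the VIP hub, to anchors 5.20 to 8.63 kb wide at 28209191, 28374063 and 28696526.

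The share of SST anchor pairs that were linked differed along the locus. All anchors of members were counted here, with the 4 SST anchors and 1 VIP anchor outside the locus. Most of these SST anchors lay above the upper limit. A link between anchors that both lie outside is not a member, so such pairs counted as not linked. When the Ntm side was divided at the anchor chr9:29448052-29478717, a division made after its links were seen, the 12 SST anchors from there upward had 33 of their 66 pairs linked, or 50% (37.4 to 62.6%). The 26 anchors of the Opcml side had 77 of 302 pairs within 1 Mb linked, or 25.5% (20.7 to 30.8%), of which 21 were links of the SST hub. The 20 anchors between them had 13 of 190 pairs linked, or 6.84% (3.69 to 11.4%), but had 48 links to the Opcml side, 18 of them to the SST hub. In VIP the stretch from 29448052 upward had 6 of 21 pairs linked. Between that stretch and the middle, 7 of 226 SST pairs, 3.10% (1.25 to 6.28%), and 1 of 63 VIP pairs were linked. Between that stretch and the Opcml side, 8 of 28 SST pairs within 1 Mb, 28.6% (13.2 to 48.7%), and 0 of 5 VIP pairs were linked. The SST shares were thus lowest within the middle and between it and the upper stretch, and the other 4 intervals were above that of the middle with the upper stretch.

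**Figure D4:**
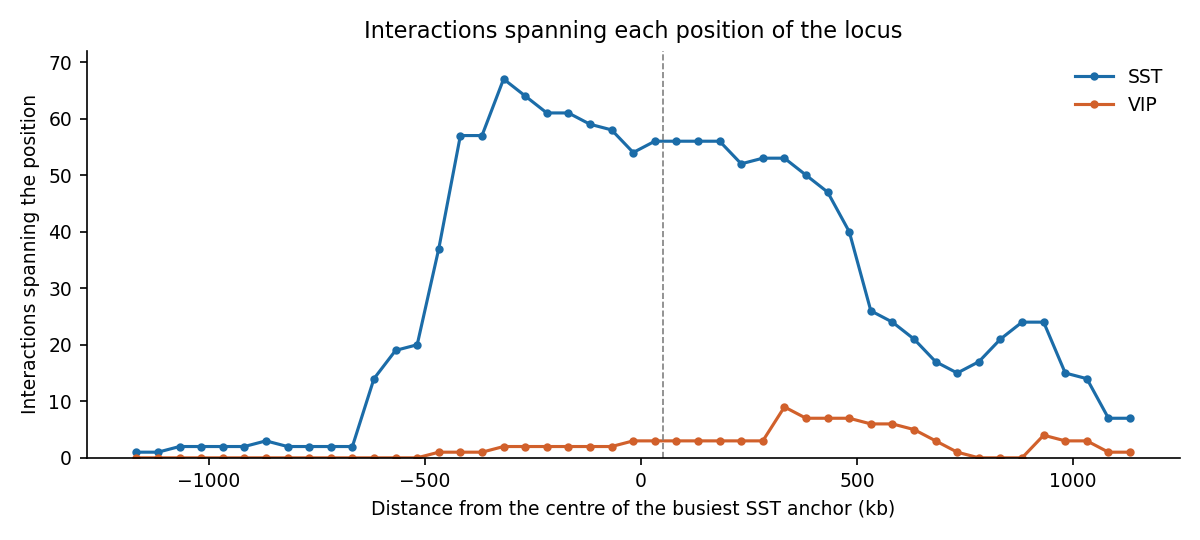
Lines give the number of interactions whose anchor midpoints lie on either side of a position (y axis), every 50 kb along the locus, by distance from the centre of the busiest SST anchor (x axis, kb), for SST and VIP. The SST line stays between 47 and 67 from 418 kb below to 432 kb above that centre and crosses the dashed boundary at 56, and the VIP line stays at or below 9.

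At the boundary, 56 SST and 3 VIP interactions spanned the position. The SST number was highest at 28400000, with 67, and lowest within the Ntm side at 29800000 and 29850000, with 7 at each. It was 15 at 29450000 and 24 at 29600000. The VIP number was highest at 29050000, within the VIP hub, with 9, and was 0 from 29500000 to 29600000. At the limits of the locus, the SST list had no anchor between chr9:27124081-27131681, with 1 interaction and outside it, and chr9:27595938-27605312, also with 1 and inside it. At the upper limit chr9:29758112-29773911 with 7 interactions was the last inside, and chr9:29954713-29963071 with 3 was the next outside. In SST 8 members, and in VIP 1, had an anchor outside the locus.

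SST interactions of the locus were long. Their median distance was 355 kb (order-statistic interval 303 to 418), against 173 kb (163 to 184) in the rest of the SST list and 138 kb (109 to 199) in the rest of chromosome 9. Over 400 kb lay 43.5% of them (36.3 to 51.0%), against 24.0% (23.1 to 25.0%) in the rest of the list. The median was 291 kb on the Opcml side, 164 kb on the Ntm side and 669 kb for interactions joining the sides. Without the SST hub, the median of the SST locus interactions was 303 kb (242 to 355). The shortest, 20.4 kb, joined chr9:28208067-28224954 to chr9:28229194-28244692, and the longest, 976.6 kb, joined the first of these to chr9:29183545-29202576. In VIP the median was 308 kb (65.2 to 374), against 167 kb (157 to 176) in the rest of the list. The VIP interval for the locus overlaps that of its own list, as well as that of the SST locus. Of the SST locus interactions, 17.7% were at most 100 kb long, against 39.2% in the rest of the list.

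**Figure D5:**
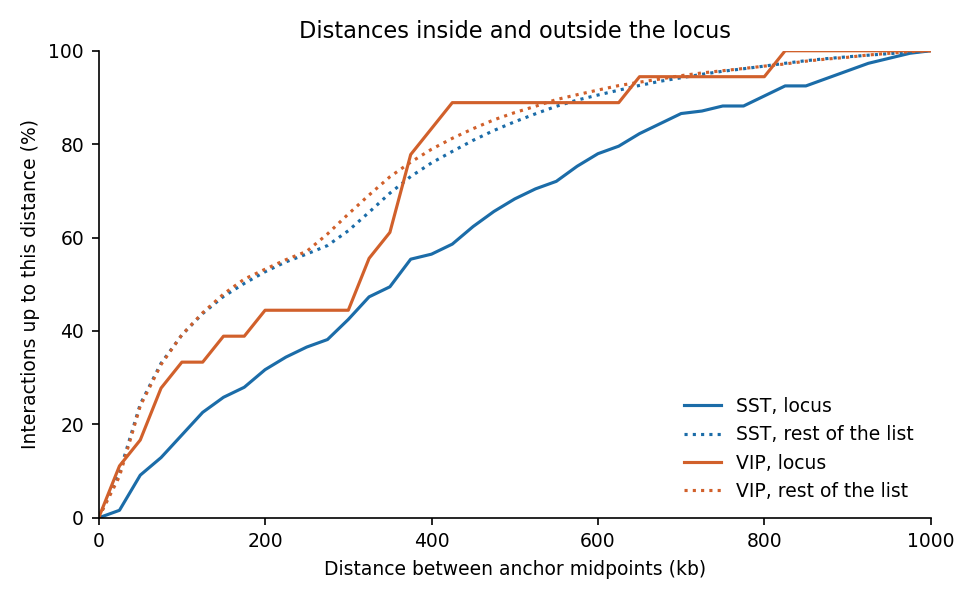
Lines give the cumulative percentage of interactions (y axis) up to a distance between anchor midpoints (x axis, kb), for the locus (solid) and the rest of each list (dotted). At 400 kb the SST locus line is at 56.5% and the rest of the SST list at 76.0%, while the VIP locus is at 83.3% and the rest of the VIP list at 78.9%.

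The number of links per pair of anchors was not high at short distance. Within 200 kb, 20.9% (16.3 to 26.1%) of the SST anchor pairs inside the locus were linked, against 31.3% (30.5 to 32.1%) in the rest of the list. At 200 to 400 kb the shares were 17.5% (13.0 to 22.8%) and 21.8% (20.9 to 22.6%). At 400 kb to 1 Mb they were 14.3% (11.4 to 17.6%) and 11.4% (11.0 to 11.9%), with intervals that overlap. The locus was lower than the rest of the SST list within 200 kb and overlapped it in interval above 400 kb.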

How the data were processed

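H3K27ac HiChIP was done on INTACT-purified nuclei of SST and VIP interneurons. Chromatin was cut with MboI, per the labels' protocols. HiC-Pro and build mm9 were used, per the submitters' processing notes. On the interaction caller, its threshold and any pooling of replicates nothing is given in the sources used here. Each deposited list holds 6 columns, with chromosome and limits (bp) of a lower and an upper anchor as the authors wrote them, and no other value per interaction, no count and no score. The base from which starts are counted is unknown, which leaves them uncertain by 1 bp.

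Members, anchors, sides, sharing and distances between anchor midpoints were computed from all rows without a filter. Intervals are exact 95% Poisson, exact binomial (Clopper-Pearson) or order-statistic intervals. The ratio of rates has an interval from the binomial split of both counts. Depth per sample is not in the lists, so precision is known for counting error only. No test was run, as each cell type has 1 list. The genes, the locus and its limits were chosen with earlier results of these data known. The rule for regions named in the text was every VIP interaction, every SST anchor with 10 or more interactions, the shortest and longest SST interaction, shared SST interactions if at most 10, and the 3 windows nearest in difference. Other regions were named after their values were seen. Alternatives covered the member rule, merging, distance, boundary, scaling and overlap. Functions were tested on simulated data. The other IgLON genes were not placed, for want of an mm9 annotation, and promoter sequences are from RefSeq. The software was matplotlib 3.10.9, scipy 1.17.1, pandas 2.3.3 and numpy 2.4.6 under Python 3.11.15.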

Additional observations from a re-analysis of the deposited data

How the results depend on the processing

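Over 15 alternatives, 62 of 90 recomputed values of 10 results stayed within the interval of the reported value and 28 moved outside it. The difference between SST and VIP, the one result among them that could change sign, was above 0 under each alternative run for it. The locus was chosen for this difference in the same lists, so nothing is read from its unchanged sign. The difference of 19.8 per 1000 between SST and VIP was 14.1 with anchors within 5 kb merged, 12.6 within 10 kb, 11.4 for interactions of up to 200 kb, 14.7 without the SST hub and 5.53 when distinct anchors per 1000 anchors were counted. The busiest SST anchor of the locus, with 44 interactions at the SST hub, had 27 and 19 with anchors merged within 5 and 10 kb. At up to 200 kb the busiest anchor was chr9:28271959-28326276 and not the SST hub, with 10 interactions, or 16.9%. Without the SST hub the busiest anchor had 25, or 17.6% of the interactions. The Opcml-side share was 33.3% with 10 kb merging and 25.8% with the boundary 100 kb lower. The Ntm-side share was 36.1% with 10 kb merging, 49.2% at up to 200 kb, 37.3% without the SST hub and 43.0% with the boundary 100 kb lower. Interactions joining the sides made up 3.39% at up to 200 kb, which leaves out long ones by construction, and 23.2% without the SST hub. Shared SST interactions were 10.2% at up to 200 kb, 0% with identical anchors and 0.538% when the overlap had to reach 50% of the shorter anchor. Shared VIP interactions were 62.5%, 0% and 5.56% under these settings. SST anchors overlapping a VIP anchor were 13.2% at up to 200 kb and 0% with identical anchors. The median SST distance was 86.0 kb at up to 200 kb, by construction. Some settings changed what was counted. Merging drops links within a merged anchor and counts repeated links once, and counting anchors is another measure than counting interactions. The lower boundary put the SST hub and its neighbour below it on the Ntm side. Apart from these and the settings marked as acting by construction, the cause of a shift was not tested. No paired analysis was possible because SST and VIP have 1 list apiece, which also means that leaving out a replicate could not be done. Unknown depth limits what a missing interaction shows.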
